A study of Homo sapiens with 2 samples.

Results

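The ZIC genes encode zinc finger transcription factors named for their expression in the cerebellum, where they are found in granule cells and their progenitors. ZIC1, ZIC4, ZIC2 and ZIC5 stand in 2 divergent pairs, ZIC1 with ZIC4 on chromosome 3 and ZIC2 with ZIC5 on chromosome 13. OTX2 binding at these 4 genes was examined in the deposited OTX2 peaks. The genes were chosen by name, as the granule lineage zinc finger factors of the paired arrangement. Each pair was treated as 1 locus, running from 100 kb before to 100 kb after the joined GENCODE gene records in GRCh38. These loci held 35 of the 137412 OTX2 peaks (0.0255%), 16 at ZIC1-ZIC4 and 19 at ZIC2-ZIC5.

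D283 is an established medulloblastoma cell line. The cells were grown as tumorspheres, floating spheres in serum-free medium with EGF and bFGF, and were the untreated OTX2+ control of the study. Chromatin was pulled down with a rabbit antibody to OTX2 and sequenced as 1 ChIP library, and 1 input library of the same cells was sequenced without antibody. Each group is 1 library of a single cell line, so the values carry no error between replicates and were not tested. RNA was not measured in these libraries, so neither the cell type nor the expression of a ZIC gene could be checked against markers.

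ZIC proteins are C2H2 zinc finger factors related to the GLI effectors of Hedgehog signalling, and they act in neural tube, neural crest and cerebellar development. Loss of a ZIC1 and ZIC4 copy has been linked to Dandy-Walker malformation of the cerebellum, and mutations of ZIC2 cause holoprosencephaly. OTX2 is a homeodomain factor of the anterior brain that recognises short sites with the core TAATC, such as TAATCC or TAATCT. Genes in a divergent pair are read away from each other, so that DNA between their transcription start sites (TSS) lies upstream of both.

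ZIC1 (ENSG00000152977) lies on the plus strand of chromosome 3. Its GENCODE record runs from 147393422 to 147510293 and covers 5 transcripts, while its canonical transcript has 3 exons and spans only 147409365 to 147416719. ZIC4 (ENSG00000174963) lies on the minus strand from 147386046 to 147406809, and its canonical transcript of 5 exons begins at 147406543. The canonical starts of this pair are 2.82 kb apart. The ZIC1 record begins inside ZIC4, so that the records overlap. ZIC2 (ENSG00000043355) lies on the plus strand of chromosome 13 from 99981784 to 99986765 and has 3 exons. ZIC5 (ENSG00000139800) lies on the minus strand from 99962964 to 99971767 and has 2 exons. Their starts are 10.0 kb apart.

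The promoter sequences show where OTX2 peaks met the starts of the ZIC genes. RefSeq (GRCh38.p14) gave 9 windows for the 4 genes, each from 250 bases before to 50 bases after a start. Peaks overlapped 4 of the 9, beside 30.0% of 35116 windows of all genes. They are printed 5′ to 3′ on the strand of the gene, with the ZIC2 window, which no peak reached, added for contrast. Capitals mark bases inside an OTX2 peak.
ZIC1, main start, plus strand, chr3:147409115-147409414: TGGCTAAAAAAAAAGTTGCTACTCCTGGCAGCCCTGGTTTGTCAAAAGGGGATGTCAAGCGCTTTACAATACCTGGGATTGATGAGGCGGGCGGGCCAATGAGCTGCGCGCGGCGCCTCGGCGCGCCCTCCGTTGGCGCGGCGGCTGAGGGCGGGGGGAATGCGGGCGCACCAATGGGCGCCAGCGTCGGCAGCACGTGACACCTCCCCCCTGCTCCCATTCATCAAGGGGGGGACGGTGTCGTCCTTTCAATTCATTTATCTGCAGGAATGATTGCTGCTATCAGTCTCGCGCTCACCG
ZIC4, start inside the gene, minus strand, chr3:147392333-147392632: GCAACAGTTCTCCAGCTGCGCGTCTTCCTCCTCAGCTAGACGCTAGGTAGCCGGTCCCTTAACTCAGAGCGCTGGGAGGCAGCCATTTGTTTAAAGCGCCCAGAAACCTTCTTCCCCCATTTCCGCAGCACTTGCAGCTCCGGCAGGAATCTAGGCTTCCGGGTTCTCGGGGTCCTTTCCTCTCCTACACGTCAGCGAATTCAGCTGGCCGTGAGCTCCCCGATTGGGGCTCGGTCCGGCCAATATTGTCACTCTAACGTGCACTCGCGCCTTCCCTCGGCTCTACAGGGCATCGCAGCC
ZIC5, main start, minus strand, chr13:99971718-99972017: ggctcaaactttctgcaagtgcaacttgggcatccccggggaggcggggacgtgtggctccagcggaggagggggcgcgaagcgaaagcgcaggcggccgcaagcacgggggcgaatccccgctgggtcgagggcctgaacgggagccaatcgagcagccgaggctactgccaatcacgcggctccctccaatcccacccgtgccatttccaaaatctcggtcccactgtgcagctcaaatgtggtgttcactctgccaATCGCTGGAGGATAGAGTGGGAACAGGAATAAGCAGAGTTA
ZIC5, start inside intron 1, minus strand, chr13:99969123-99969422: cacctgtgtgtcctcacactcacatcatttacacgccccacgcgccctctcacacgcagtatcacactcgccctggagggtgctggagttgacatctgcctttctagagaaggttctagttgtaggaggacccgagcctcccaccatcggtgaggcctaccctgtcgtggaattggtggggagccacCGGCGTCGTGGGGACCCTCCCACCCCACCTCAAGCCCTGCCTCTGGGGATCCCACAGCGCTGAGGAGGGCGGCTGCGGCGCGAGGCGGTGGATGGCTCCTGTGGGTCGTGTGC
ZIC2, main start, plus strand, chr13:99981534-99981833: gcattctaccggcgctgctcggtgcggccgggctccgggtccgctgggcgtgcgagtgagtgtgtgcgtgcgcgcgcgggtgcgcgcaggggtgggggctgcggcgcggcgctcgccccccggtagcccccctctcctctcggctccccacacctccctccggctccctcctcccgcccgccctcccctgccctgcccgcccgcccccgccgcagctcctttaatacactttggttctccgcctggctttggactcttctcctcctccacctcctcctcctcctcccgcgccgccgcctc

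All 300 bases of the ZIC1 window and of the printed ZIC4 window, at a start inside the gene, lay inside a peak. The other ZIC4 windows, among them the one at its main start, held no base of a peak. At ZIC5 the peaks covered 41 bases of the main window and 113 bases of the window in intron 1, in each case at its downstream end. In the printed windows the G and C content was 61.3% at ZIC1, 59.7% at ZIC4, 62.0% and 64.0% at ZIC5 and 75% at ZIC2. Over the 9 ZIC windows it ran from 43.3%, at the main start of ZIC4, to 75%. The median over windows of all genes was 58.7%. None of the 9 ZIC windows held TAATCC or TAATCT on either strand, and none held TAATC, which is part of both. TAATCC or TAATCT was found in 12.8% of all windows and TAATC in 19.8%. TAATCC or TAATCT was present in 13.3% of windows with a peak and in 12.5% of windows without one. A window without a match says only that these letters are not in it, and no more was read from it. The summits of the peaks at the main starts lay 172 bp upstream of the ZIC1 start and 178 bp downstream of the ZIC5 start.

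Peak values are given as the height at the summit in ChIP fragments and as the fold enrichment, which is the scaled height over the local input with 1 added to each. Intervals on fragments are exact Poisson 95% intervals and cover counting error only. After removal of duplicates the ChIP library held 61259377 fragments and the input library 22521186. Over all peaks the median height was 53 fragments, the median fold enrichment 6.10, the median length 440 bp and the median local input 5.00. Local input is in the scaled units of the pileup, where 1 ChIP fragment counts 0.735, and its floor was 3.98.

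At the main start of ZIC1 a single broad peak of 918 bp (147408942 to 147409859) covered the TSS. It had 53 fragments (interval 39.7 to 69.3), an enrichment of 7.99-fold and a −log10 q of 22.2, with a local input of 4.00. Its height was thus the median of all peaks, and 63.9% of all peaks had a lower fold enrichment. It was the only peak between the canonical starts of ZIC1 and ZIC4, and its summit lay 2650 bp upstream of the ZIC4 start. The summit of this 1 peak therefore lay upstream of both canonical starts. Against the start of the ZIC1 record it lay 15.8 kb downstream.

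A further peak of 1160 bp lay in intron 1 of ZIC1 with its summit 3007 bp downstream of the start. It had 59 fragments (interval 44.9 to 76.1) and a fold enrichment of 7.40. The intervals of these neighbouring peaks overlapped, so that their heights could not be told apart by counting error.

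The GENCODE record of ZIC1 starts 15.9 kb further upstream, in intron 3 of ZIC4, and a weaker peak was found there. It had 27 fragments (interval 17.8 to 39.3), an enrichment of 4.18-fold and a −log10 q of 6.10, and its summit lay 44 bp downstream of the record start. The neighbouring peak, 1127 bp upstream of that start, had 25 fragments (interval 16.2 to 36.9) and a fold enrichment of 3.88. It was this peak that covered the RefSeq start of ZIC4 inside the gene, with the summit 87 bp downstream of it. The ZIC1 TSS thus carried a fold enrichment of 7.99 or 4.18, depending on which start was taken. The intervals of the 2 heights, 53 and 27 fragments, did not overlap.

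Inside ZIC4 the canonical transcript held 4 peaks, all in introns. Besides the pair in intron 3, intron 2 held peaks of 41 and 49 fragments, with fold enrichments of 6.25 and 7.43. No peak reached the canonical start of ZIC4 itself. The nearest one was the peak at the ZIC1 start.

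The ZIC5 start carried a peak of 57 fragments (99971370 to 99971758, interval 43.2 to 73.9), with the summit in the coding part of exon 1. The height was within the interval of the ZIC1 start peak. The fold enrichment was 3.30, with a −log10 q of 8.89, at a local input of 12 against 4.00 at ZIC1. Among all peaks 53.5% were lower in fragments, but only 10.4% were lower in fold enrichment.

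Further into ZIC5, intron 1 held a peak of 80 fragments (interval 63.4 to 99.6), an enrichment of 9.34-fold and a local input of 5.41. Its summit was 2774 bp downstream of the main start and 179 bp downstream of the RefSeq start inside the intron. This was the peak of highest fold enrichment in the canonical transcripts of the 4 ZIC genes. The weakest peak of both loci by fold enrichment lay in the same intron, with 29 fragments (interval 19.4 to 41.6), an enrichment of 2.03-fold and a −log10 q of 1.51, at a local input of 10.0.

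ZIC2 had no peak at its TSS. The nearest upstream peak, of 25 fragments (interval 16.2 to 36.9) and a fold enrichment of 3.34, had its summit 2047 bp before the start. It fell within a long non-coding RNA record (ENSG00000288060) on the opposite strand, 297 bp downstream of the 5′ end of that record. It was also the only peak between the starts of ZIC2 and ZIC5. The ZIC2 transcript itself held 1 peak, of 33 fragments (interval 22.7 to 46.3) and a fold enrichment of 2.82, in the 3′ untranslated part of exon 3.

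**Figure D1:**
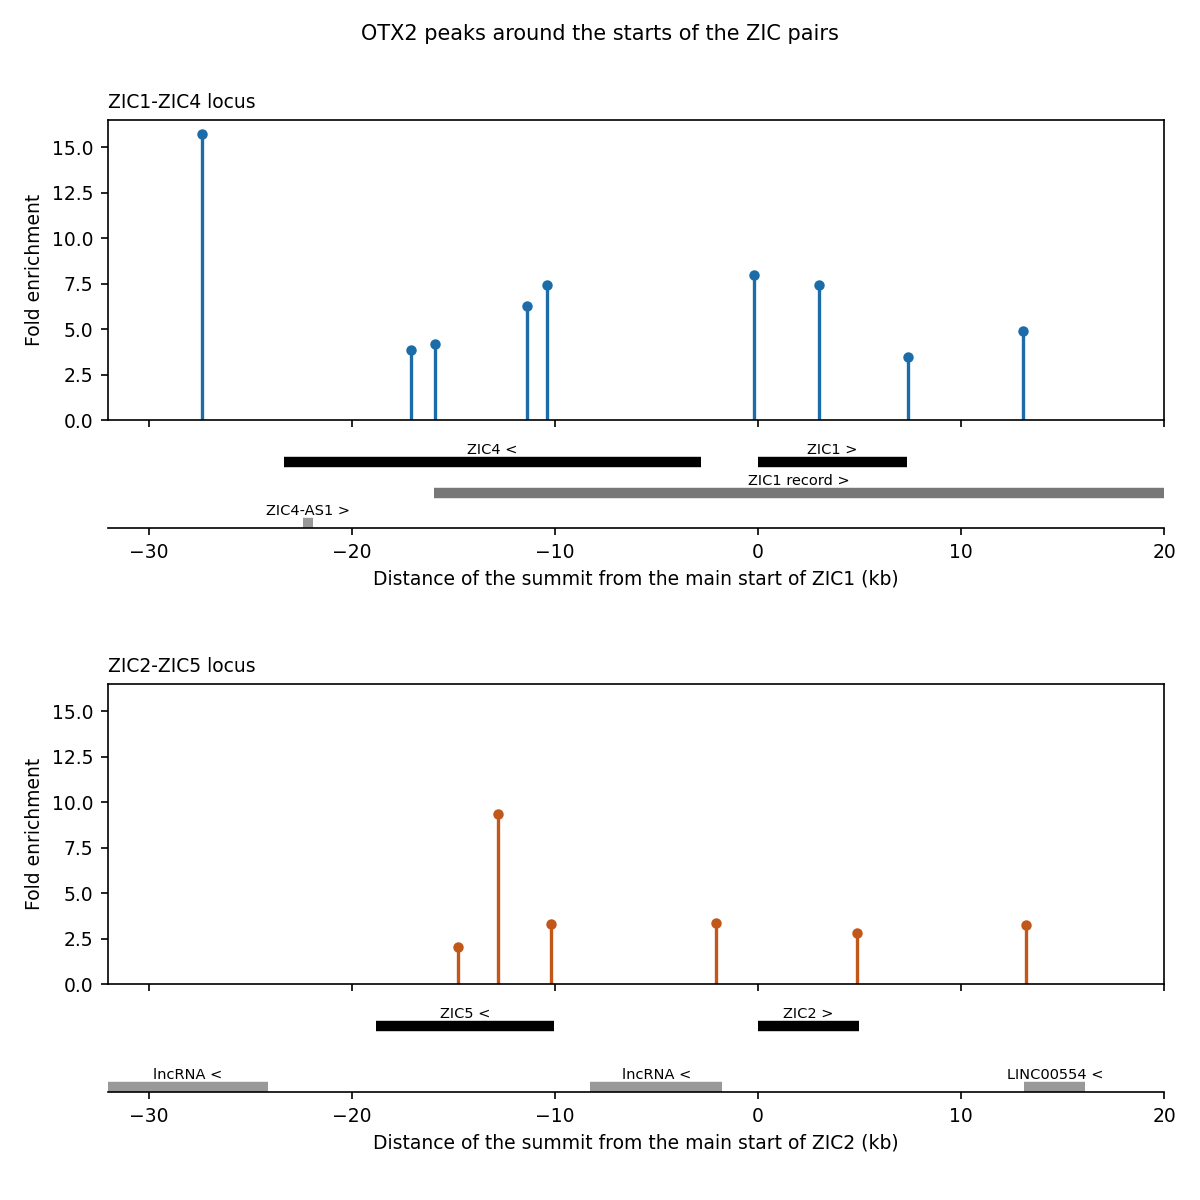
Fold enrichment of OTX2 peaks (vertical axis) against the distance of the summit from the canonical start of ZIC1 or ZIC2 in kb (horizontal axis), 1 stem per peak. Bars below show canonical transcripts (black), the ZIC1 gene record (dark grey) and non-coding RNA records (light grey), with > for the plus and < for the minus strand. The stem at 0 is the ZIC1 start peak of 7.99-fold, whereas no stem stands at the ZIC2 start.

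All 4 ZIC genes had a peak within the window of the study, which reaches 5 kb before and 2 kb after the TSS, with either the record or the canonical start. Of 19881 protein-coding genes, 57.2% had such a peak. A summit within 250 bp of the canonical start was found for 2 of the 4, ZIC1 and ZIC5, beside 27.4% of all genes. The count was 3 of 4 at a −log10 q of at least 5, where ZIC2 was lost and 52.0% of all genes had a peak. It was also 3 of 4 without peaks of local input 12 or more, where ZIC5 was lost and the share of all genes was 56.0%. Around the record start, a window of 1 kb on each side left ZIC1 and ZIC5, 2 of 4 beside 46.9% of all genes. With record starts, a fold enrichment of at least 5 left 1 of 4, beside 38.5% of all genes. This was ZIC4, through the peaks at the canonical start and in intron 1 of ZIC1. With canonical starts ZIC1 also passed, at 7.99, and the share of all genes was not computed for that setting. Of 3810 divergent protein-coding pairs with starts within 25 kb, 77.4% had a peak between or within 2 kb of them, as both ZIC pairs had.

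Peaks were also found at the 3′ ends of ZIC1 and ZIC2, a feature singled out after the values were seen. The peak at ZIC1 was the weakest of its locus, with 22 fragments (interval 13.8 to 33.3), an enrichment of 3.44-fold and a summit 59 bp beyond the end of the canonical transcript. The peak at ZIC2 was the one in exon 3, with its summit 91 bp before the end. A peak overlapped the canonical 3′ end in 2.26% of protein-coding genes, or the record 3′ end in 2.34%. With record ends, only ZIC2 of the 4 had one.

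The strongest peaks of both loci lay away from the ZIC starts. At ZIC1-ZIC4 the highest was a peak of 1087 bp (147381732 to 147382818) with 130 fragments (interval 109 to 154), an enrichment of 15.7-fold and a −log10 q of 81.0. Its summit lay 4.04 kb beyond the 3′ end of ZIC4 and 27.4 kb upstream of the ZIC1 start. Among all peaks 88.0% had a lower fold enrichment and 84.3% were lower in fragments. These shares set the highest peak of a locus against single peaks. Over 19348 protein-coding loci with a peak, the highest peak had a median of 19.4-fold and 175 fragments. Of these loci, 35.1% had a lower maximum in fold enrichment than ZIC1-ZIC4, and 33.0% in fragments.

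The next in rank were 2 neighbouring peaks separated by 513 bp, far downstream of ZIC1. The nearer one (147553759 to 147554769) had 104 fragments (interval 85.0 to 126) and a fold enrichment of 13.8. The farther one (147555283 to 147556052) had 119 fragments (interval 98.6 to 142) and a fold enrichment of 15.6. They lay 145 kb and 146 kb downstream of the canonical ZIC1 start, and 44.2 kb and 45.3 kb beyond the end of its record. From the end of the canonical transcript they lay 138 kb and 139 kb away, farther than the 100 kb flank. Both were thus in the locus only through the longer GENCODE record. With RefSeq records the locus held 14 peaks. The intervals of the 3 strongest peaks overlapped each other and lay above the interval of the ZIC1 start peak.

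The remaining 6 peaks of this locus, all downstream of the canonical ZIC1 transcript, had heights from 35 to 62 fragments and fold enrichments from 4.91 to 9.34. No peak was found between the border of the locus and the peak beyond ZIC4. The longest stretch without a peak between neighbouring peaks was 52.3 kb and lay inside the ZIC1 record.

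At ZIC2-ZIC5 the highest peak was 1335 bp long (100050546 to 100051880) and had 286 fragments (interval 254 to 321), an enrichment of 21.4-fold and a −log10 q of 200. Its summit lay 69.4 kb downstream of the ZIC2 start and 1.89 kb beyond the 3′ end of PCCA-DT, a non-coding RNA. Among all peaks 94.5% had a lower fold enrichment and 98.3% were lower in fragments. Among protein-coding loci with a peak, 58.0% had a lower maximum in fold enrichment than ZIC2-ZIC5, and 85.0% in fragments. The interval of this peak overlapped only that of the second peak of the same locus.

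The second was a peak of 558 bp (99906585 to 99907142) inside CLYBL, which encodes a mitochondrial lyase. It had 239 fragments (interval 210 to 271) and a fold enrichment of 11.8, at a local input of 14. Its summit lay 75 kb upstream of ZIC2, or 65.0 kb downstream of the ZIC5 start. By height 96.2% of all peaks were lower, and by fold enrichment 79.5%. The third by fold enrichment, at 10.0, had 71 fragments (interval 55.5 to 89.6) and lay 65.1 kb upstream of ZIC2. A peak of 94 fragments (interval 76.0 to 115) in CLYBL was higher than the third in fragments but lower in fold enrichment, at 8.74. The remaining 10 peaks, which lay outside the ZIC2 and ZIC5 transcripts and their start windows, had heights from 17 to 61 fragments and fold enrichments from 2.28 to 6.33.

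**Figure D2:**
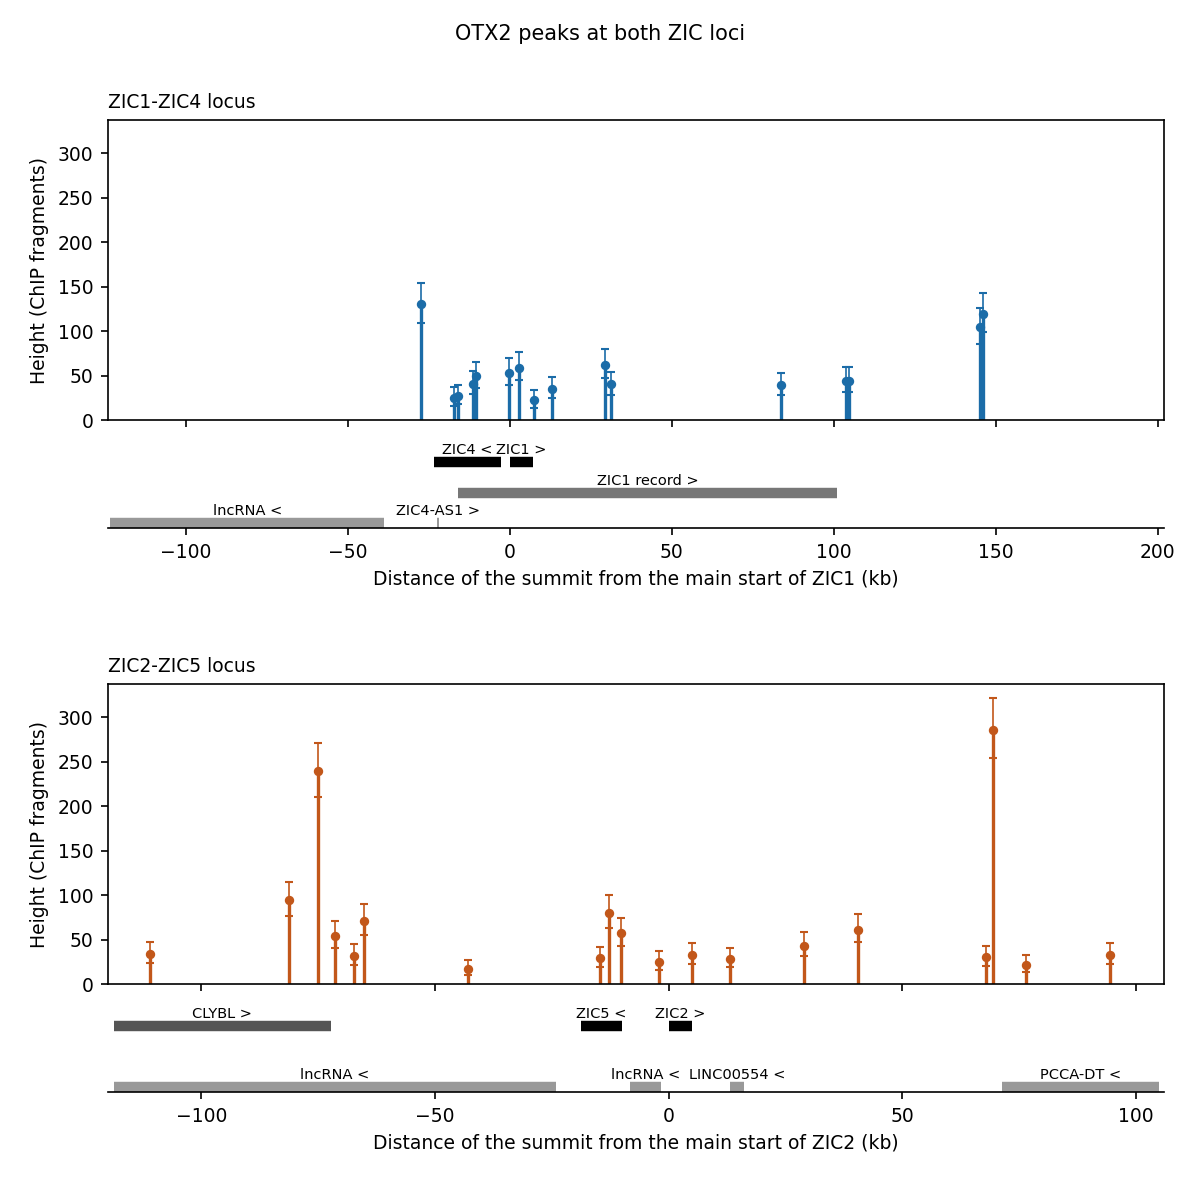
Height of each OTX2 peak in ChIP fragments (vertical axis, the same in both panels) against the distance of its summit from the canonical start of ZIC1 or ZIC2 in kb (horizontal axis). Error bars are exact Poisson 95% intervals, and bars below show genes as black (canonical ZIC transcripts), dark grey (CLYBL and the ZIC1 record) or light grey (non-coding RNA). The highest peaks reached 130 fragments at ZIC1-ZIC4 and 286 at ZIC2-ZIC5, and none of these stood at a ZIC start.

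Peaks of the loci need not belong to ZIC genes. The ZIC1-ZIC4 locus held no other protein-coding gene record, only ZIC4-AS1, a non-coding RNA record (ENSG00000243620) and the pseudogene NPM1P28. The ZIC2-ZIC5 locus held part of CLYBL, which had 28 peaks over its whole record, most of them outside the locus. It also held non-coding RNA records (ENSG00000286757, ENSG00000288060, LINC00554 and PCCA-DT) and the pseudogenes NDUFA12P1 and ASNSP3. PCCA itself began 102 kb after the end of ZIC2, just outside. Which gene a distant peak acts on was not measured.

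Per length, the ZIC1-ZIC4 locus held 4.93 peaks per 100 kb over 324 kb and the ZIC2-ZIC5 locus 8.49 over 224 kb. The median over 19881 protein-coding loci was 5.18. Each of these was 1 gene record with the same flanks, not a joined pair. Per 100 kb, 47.2% of them had fewer peaks than ZIC1-ZIC4 and 82.0% fewer than ZIC2-ZIC5. Of the 19 peaks of ZIC2-ZIC5, 8 had a −log10 q under 5, against 1 of 16 at ZIC1-ZIC4. The share of all peaks under 5 is not given here, so neither count can be placed against it. When only peaks of at least 5 were kept, ZIC2-ZIC5 had 11 peaks and 55.9% of loci had fewer, and ZIC1-ZIC4 had 15 and 52.0%. Peaks covered 3.13% of the ZIC1-ZIC4 locus and 3.65% of the ZIC2-ZIC5 locus.

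**Figure D3:**
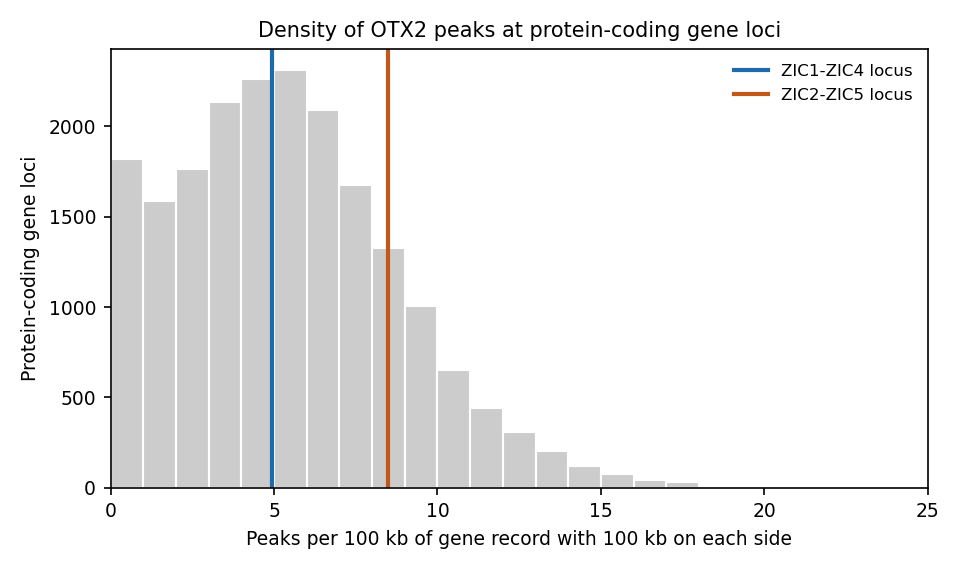
Number of protein-coding gene loci (vertical axis) by OTX2 peaks per 100 kb (horizontal axis, which ends at 25). Lines mark ZIC1-ZIC4 at 4.93, just under the median of 5.18 over all loci, and ZIC2-ZIC5 at 8.49, to the right of most loci.

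The loci differed in the level of their peaks and of the input beneath them. Heights ran from 22 to 130 fragments with a median of 44 at ZIC1-ZIC4, and from 17 to 286 with a median of 34 at ZIC2-ZIC5. Fold enrichments ran from 3.44 to 15.7 with a median of 6.49 at ZIC1-ZIC4, and from 2.03 to 21.4 with a median of 4.08 at ZIC2-ZIC5. When only peaks with a −log10 q of at least 5 were kept, these medians lay close together, at 6.61 and 6.33. On both scales the range of ZIC1-ZIC4 lay within that of ZIC2-ZIC5. A fold enrichment of at least 5 was reached by 12 of 16 peaks at ZIC1-ZIC4 and 7 of 19 at ZIC2-ZIC5, beside 62.9% of all peaks.

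Local input had a median of 4.02 at ZIC1-ZIC4 and 7.0 at ZIC2-ZIC5. It was at the floor for 6 of 16 and 1 of 19 peaks, beside 26.4% of all peaks. A local input of at least 12 was seen for 0 of 16 and 2 of 19 peaks, beside 4.22% of all peaks. Among 19348 loci with a peak, 32.4% had a lower median local input than ZIC1-ZIC4 and 93.3% had a lower one than ZIC2-ZIC5. Chromosome 13 as a whole had a median local input of 6.0 and chromosome 3 of 5.00. Local input is the divisor of the fold enrichment, and its part in the lower folds of ZIC2-ZIC5 was not tested beyond these values.

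**Figure D4:**
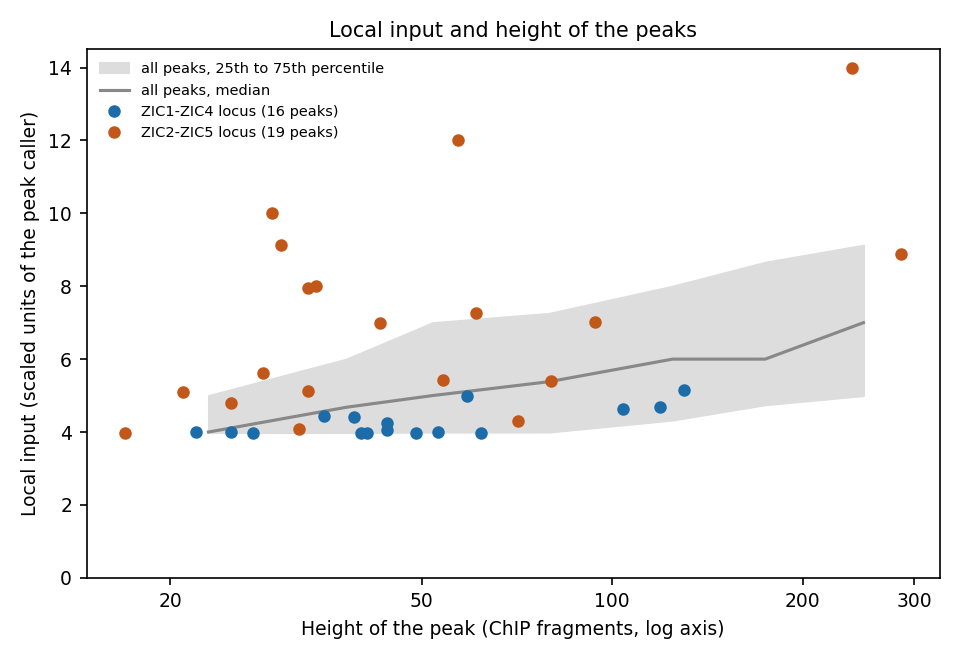
Local input in scaled pileup units (vertical axis) against peak height in ChIP fragments (horizontal axis) for the peaks of ZIC1-ZIC4 and ZIC2-ZIC5, with a grey band from the 25th to the 75th percentile of all peaks of like height. Peaks of ZIC1-ZIC4 lie between 3.99 and 5.15, and those of ZIC2-ZIC5 between 3.99 and 14.

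Long and closely spaced peaks were found mainly at ZIC1-ZIC4. At least 1000 bp was reached by 4 of its 16 peaks and by 1 of 19 at ZIC2-ZIC5, beside 8.16% of all peaks. Neighbouring peaks were under 600 bp apart in 4 of 15 gaps at ZIC1-ZIC4 and in 1 of 18 at ZIC2-ZIC5, beside 6.56% of all gaps. The median gap was 4.06 kb at ZIC1-ZIC4 and 7.11 kb at ZIC2-ZIC5, against 8.69 kb over all peaks. The locus medians leave out stretches without a peak that reach a locus border, so they are not fully comparable with the last. The comparisons of length and spacing were not planned in advance. Their counts are small and rest on a single peak list.

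Relatives of the ZIC proteins were compared as a list of 6 genes, the GLI and GLIS factors. A peak near the TSS was found for 3 of the 6, near the 57.2% of all protein-coding genes. These were GLI2 at a fold enrichment of 18.8, GLI1, a direct Hedgehog target and effector, at 8.16, and GLIS2 at 3.5. GLI3, GLIS1 and GLIS3 had none. With the TSS of any transcript the count was 5 of 6, and the share of all genes 66.6%.

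Of 21 transcription factors and markers of cerebellar granule cells, 12 had a peak near the TSS, close to the share of all protein-coding genes. The highest were TLX3 at 19.7, MEIS2 at 15.7, NEUROD1 at 12.5 and MEIS1 at 11.8, where NEUROD1 drives granule neuron differentiation. ATOH1, the factor that specifies granule progenitors, had none, nor had PAX6, BARHL1, NHLH2, EN2, INSM1, NFIX, CNTN2 and RBFOX3. By record start, the highest fold enrichment was 7.99 at ZIC4, 4.18 at ZIC1, 3.34 at ZIC2 and 3.30 at ZIC5. ZIC1 stood at 7.99 by its canonical start. Both values of 7.99 come from the same peak, which covered the canonical start of ZIC1 and did not reach the start of ZIC4. The median over the 12 listed genes with a peak was 7.43, and by record start only ZIC4 was above it. Over all protein-coding genes with a peak the median was 6.39. With a window of 1 kb on each side the count was 7 of 21, and the share of all protein-coding genes 46.9%.

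**Figure D5:**
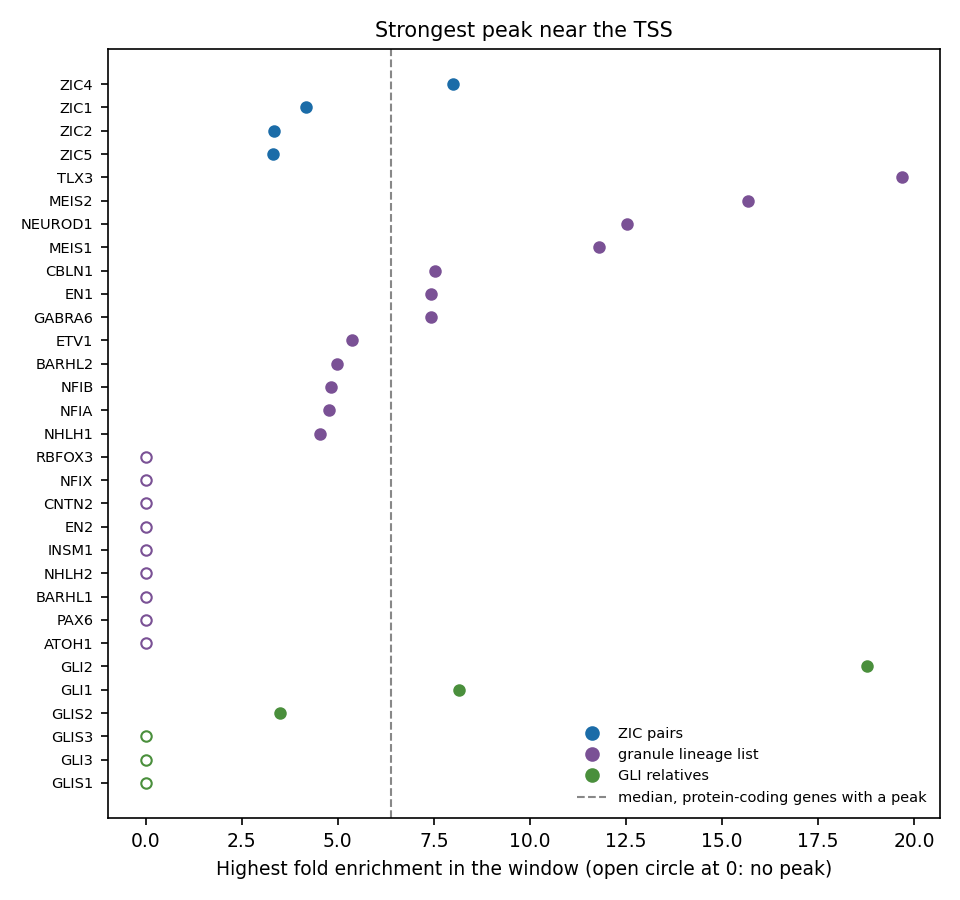
Highest fold enrichment of an OTX2 peak near the TSS of the record (horizontal axis) for the ZIC genes, their GLI relatives and the granule lineage genes (vertical axis), 1 point per gene, with genes lacking a peak as open circles at 0 and a dashed line at the median of 6.39 over all protein-coding genes with a peak. ZIC4 stands at 7.99, while ZIC1 stands at 4.18 by its record start and would stand at 7.99 by its canonical start. Both values of 7.99 are the same peak, at the canonical ZIC1 start.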

How the data were processed

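Peaks came from 1 OTX2 ChIP library and 1 input library of D283 tumorspheres. The authors aligned the reads to GRCh38 (Bowtie2 2.2.4) and called narrow peaks in MACS2 (2.1.0.20140616) at a q-value cutoff of 0.05, with duplicates removed and the ChIP library scaled down to the input library. The deposited pileup is a signal, the scaled fragment coverage at the summit. The deposited fold is the ratio of that pileup to local input, each with 1 added, and p-values and q-values are deposited as −log10. The ChIP library outnumbered the input library 2.72 times, so the input limits the precision of folds.

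From these, heights were read back as whole fragments (all within 0.02), and local input was computed from pileup and fold. Overlap meant at least 1 bp. GRCh38 gene positions were those recorded in GENCODE release 44, and no position was lifted between builds. Promoter sequences were those of RefSeq. Motifs in whole peaks were not analysed here, since the genome at hand is GRCh37.

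Members and lists were chosen with earlier results of these data known. Peaks described in full are those near the ZIC starts, the 3 with the highest fold and the weakest of each locus. Of the lists, the 4 genes of highest fold and those without a peak are named. A gene covered by this rule is left out of the lists here. No gene of like pattern could be named with 1 ChIP library. Overlap counting was tested on simulated peaks. Scripts ran in Python 3.11.15 with numpy 2.4.6, scipy 1.17.1, pandas 2.3.3 and, for plots, matplotlib 3.10.9.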

Additional observations from a re-analysis of the deposited data

How the results depend on the processing

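There was 1 ChIP library and 1 input library, so counting error is the only error at hand, and depth of the input limits the fold enrichments. No paired analysis was possible because each group has 1 library. Of 75 recomputed values, 43 were classed as the same as the reported value, but some of these still shifted widely. Among them, the ZIC2-ZIC5 median fold enrichment rose from 4.08 to 6.33 at a −log10 q of at least 5. At a fold enrichment of at least 5, ZIC1-ZIC4 peaks fell from 16 to 12 and granule lineage genes from 12 to 8. Any transcript TSS gave 15 granule lineage genes. With a −log10 q of at least 5, the ZIC2-ZIC5 locus had 11 peaks, 52.0% of protein-coding genes had a peak near the TSS, 52.0% of loci had fewer peaks per 100 kb than ZIC1-ZIC4 and 55.9% fewer than ZIC2-ZIC5, and 72.9% of divergent pairs had a peak. Keeping peaks enriched 5-fold or more, the same values were 7, 38.5%, 60.7%, 51.3% and 58.6%. By record start, 1 of 4 ZIC genes then had a peak near the TSS. Flanks of 50 kb gave 11 peaks at ZIC2-ZIC5 and 69.2% of loci with fewer peaks than ZIC1-ZIC4. Flanks of 200 kb gave 29 and 37 peaks, with 54.1% and 86.8% of loci below. For all genes, the share with a peak was 56.3% with the summit in the window, 46.9% within 1 kb on each side and 66.6% with any transcript TSS. The window of 1 kb left 2 ZIC genes and 7 granule lineage genes, and any transcript TSS gave 5 GLI relatives. RefSeq records gave 14 peaks at ZIC1-ZIC4 and put 60.9% of loci below it. Loci of the same chromosome gave 37% and 85.7%. Height in place of fold gave medians of 44 and 34 fragments. Chosen after seeing the data, the canonical start gave 58.5% of all genes, and leaving out peaks of local input 12 or more gave 56.0% of genes and 49.3% and 77.6% of loci. The cause of these shifts was not tested beyond the fewer peaks or other windows that each setting leaves. With RefSeq records all 4 ZIC genes had a peak near the TSS. They were not run for the TSS counts of all genes and of the lists, since their strand was at hand for 15843 of 20037 protein-coding genes.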
